A study of Rattus norvegicus with 12 samples.

Results

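The genes described are 40 whose products license replication origins, unwind and copy DNA, supply deoxynucleotides or package the new strands. They were taken by name from the 32761 features of the deposited table, and all 40 were found in it. The cells were iAM-1, a line of neonatal atrial myocytes from the Wistar rat that is immortalized conditionally: doxycycline switches on LT-tsA58, a temperature-sensitive form of the SV40 large T antigen, and without the drug the cells stop dividing and differentiate into beating myocytes. All 4 groups carried that transgene, came from this 1 line and were differentiated without doxycycline in 2% serum; 3 libraries were left untransduced, 3 received a lentiviral control shRNA named ppluc, 3 received Sbk2 shRNA 1 and 3 received Sbk2 shRNA 2, with the vectors added soon after differentiation had started. Every sample title also carried the labels D9 and P10, which the titles do not spell out. Nothing in the labels says whether the 3 libraries of a group were separate cultures, so the p-values measure the spread between these libraries only, which may be technical.

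Replication is licensed before S phase, when the origin recognition complex, Cdc6 and Cdt1 load the ring-shaped Mcm2 to Mcm7 helicase onto DNA. Geminin, encoded by Gmnn, then holds Cdt1 back so that no origin is loaded again, while Cdc45 and the GINS complex join the loaded ring and turn it into a running helicase. Many of these genes are transcribed through E2F factors, which Rb family proteins restrain in resting cells and which large T antigen releases by binding those proteins. Heart muscle cells leave the cell cycle soon after birth and lower most of these mRNAs.

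Depth ranged from 30274847 to 47517427 reads per library, with 1 read worth 0.0210 to 0.0330 CPM, the read count scaled to a common library total. Libraries are lettered A to C by total within each group, and the letters pair nothing across groups. Sbk2, the target of both shRNAs and an atrial kinase gene, stood at 45.2 CPM in untransduced cells, 27.1 under ppluc, 1.07 under shRNA 1 and 0.673 under shRNA 2 (means of 3). The ppluc libraries held 24.8 to 29.6 CPM and the shRNA 1 libraries 1.00 to 1.13 (log2 change -4.13 ± 0.10, limma adjusted p = 1.0e-15). Under shRNA 2 the log2 change was -4.55 ± 0.10 (limma adjusted p = 2.7e-17). Changes throughout are on the log2(CPM + 0.5) scale with the standard error of the limma fit, which understates the change of genes near 0.5 CPM; "rose" and "fell" mark an adjusted p under 0.05 over all 12493 features with at least 0.5 CPM in at least 3 libraries. The median of all tested features was itself 0.26 higher under shRNA 1 and 0.50 higher under shRNA 2 than under ppluc. Trimmed-mean scaling, which centres the bulk of features, took 0.25 and 0.50 off these comparisons, 0.25 off shRNA 2 against shRNA 1, 0.21 and 0.47 off shRNA 1 and shRNA 2 against untransduced cells, and added 0.03 to ppluc against untransduced; changes after it are called scaled.

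The 40 genes together took a growing share of the mRNA from untransduced cells to shRNA 2. Their summed level was 639 to 646 CPM in the untransduced libraries, 675 to 698 under ppluc, 825 to 830 under shRNA 1 and 1455 to 1513 under shRNA 2, so no library of a group overlapped another group. Relative to untransduced cells the summed level was 1.07 times as high under ppluc, 1.29 times under shRNA 1 and 2.31 times under shRNA 2. In TPM, which also divides by transcript length, the most abundant member over the 4 groups was Pcna at a mean of 72.8, followed by Rpa1 at 62.8 and Tyms at 51.4, and the least abundant were Mcm10 at 0.050, Cdc6 at 0.086 and Orc1 at 0.104. The highest group mean was that of shRNA 2 for 34 of the 40, and for 32 of these all 3 shRNA 2 libraries lay above all 9 others. The mean was highest under shRNA 1 for Cdt1, Mcm6, Prim2 and Mcm2, and in untransduced cells for Tk1 and Pola2. Separated libraries were common among all features too. Against ppluc alone, all shRNA 2 libraries lay higher for 34 of the 36 tested members and for 8051 of all 12493 features tested. Against shRNA 1 these counts were 29 and 6671. The share of all features with shRNA 2 above all 9 other libraries was not counted. Across the 36 tested genes, which share the same libraries, Pearson's r between log2 TPM and the log2 change under shRNA 2 was -0.27 and Spearman's rho -0.21, given as a description.

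**Figure D1:**
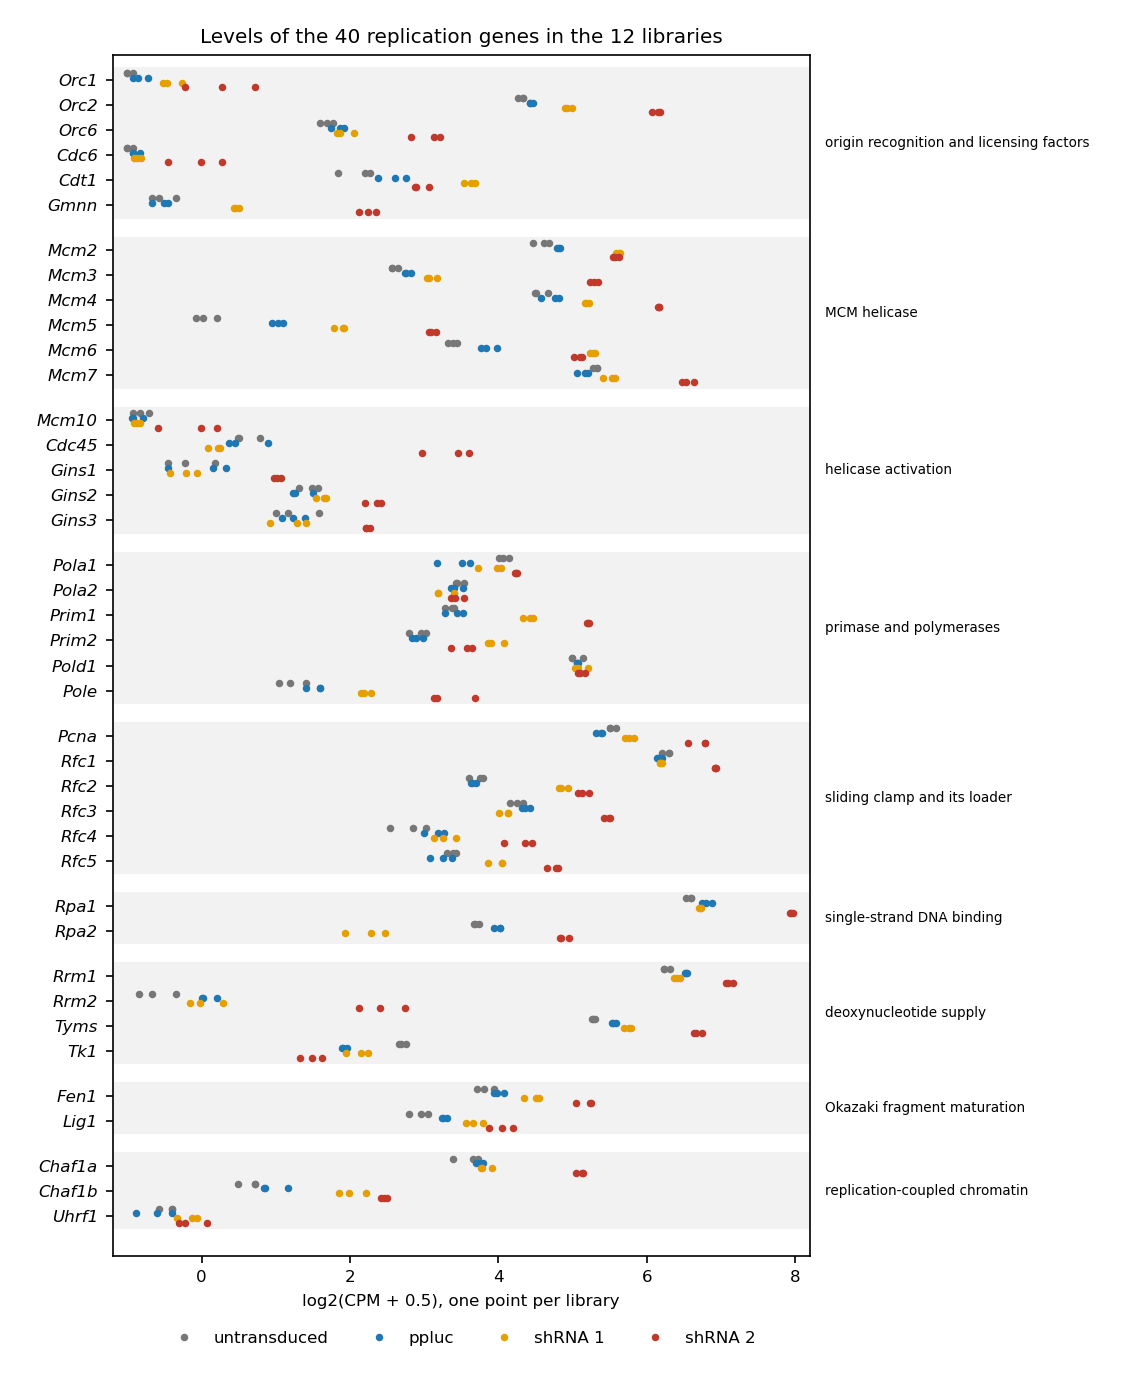
Level of each of the 40 genes in the 12 libraries, as log2(CPM + 0.5) on the x axis, grouped by role; each point is 1 library, coloured by group. The shRNA 2 points lie to the right of all others for 32 genes, whereas Tk1 is highest in untransduced cells and Cdt1, Mcm6 and Prim2 under shRNA 1. Against the ppluc libraries alone, every shRNA 2 library lay higher for 34 of the 36 tested members and for 8051 of all 12493 features tested. The share of all features with shRNA 2 above all other libraries was not counted.

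Against ppluc, 36 of the 40 could be tested, each of them present at 0.5 CPM in 3 or more libraries outside the shRNA 2 group as well. Gmnn reached that level only in the shRNA 1 and shRNA 2 libraries, so its place among the members that rose is a description. Under shRNA 2, 33 of the 36 rose, Tk1 fell and Pold1 and Pola2 did not pass, with a median change of 1.16; of all features tested 65.0% rose and 21.1% fell under shRNA 2, with a median of 0.50. A change above 1 was reached by 24 of the 36, against 25.9% of all features; after scaling it was reached by 9 of 36, against 11.7%. Scaled, 30 rose, 3 fell (Tk1, Pold1 and Pola2) and the median was 0.66, where 40.2% of all features rose and 40.8% fell. Under shRNA 1, 21 of the 36 rose and 3 fell with a median of 0.34, where 54.7% of all features rose and 18.7% fell with a median of 0.26. Scaled, 14 rose and 8 fell under shRNA 1 and the median was 0.08, where 33.8% of all features rose and 33.7% fell. The share of members that rose under shRNA 1 was thus near that of all features under either scaling.

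The shRNA 2 libraries were also set against the shRNA 1 libraries directly. There 29 of the 36 were higher under shRNA 2, 4 were lower (Tk1, Cdt1, Prim2 and Mcm6) and 3 did not pass, with a median of 0.94; of all features 53.3% were higher and 27.7% lower. Scaled, 25 were higher and 6 lower, Mcm2 and Pold1 having joined the 4, against 38.9% and 38.9% of all features. Both comparisons against ppluc use the same 3 ppluc libraries. Rfc3, Rpa2 and Rrm1 fell under shRNA 1 and rose under shRNA 2, and the share of all features that did so was not counted. Scaled, Rrm1 fell under shRNA 1 and did not pass under shRNA 2, Cdc45, Rfc1 and Rpa1 also fell under shRNA 1 and rose under shRNA 2, and Pola2 and Pold1 fell under both.

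Between ppluc and untransduced cells 12 of the 36 rose, 5 fell and 19 did not pass, with a median of 0.15; 24.9% of all features rose and 32.3% fell, with a median of -0.04. Scaled, 17 rose and 2 fell, against 28.3% and 29.1%. Against untransduced cells, whose 3 libraries serve all of these comparisons, 24 rose and 4 fell under shRNA 1 (51.4% and 24.3% of all features), and 32 rose and 1 fell under shRNA 2 (62.7% and 23.0%). Scaled, 18 rose and 8 fell under shRNA 1 (36.1% and 36.1% of all features), and 31 rose and 4 fell under shRNA 2 (39.8% and 41.6%).

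**Figure D2:**
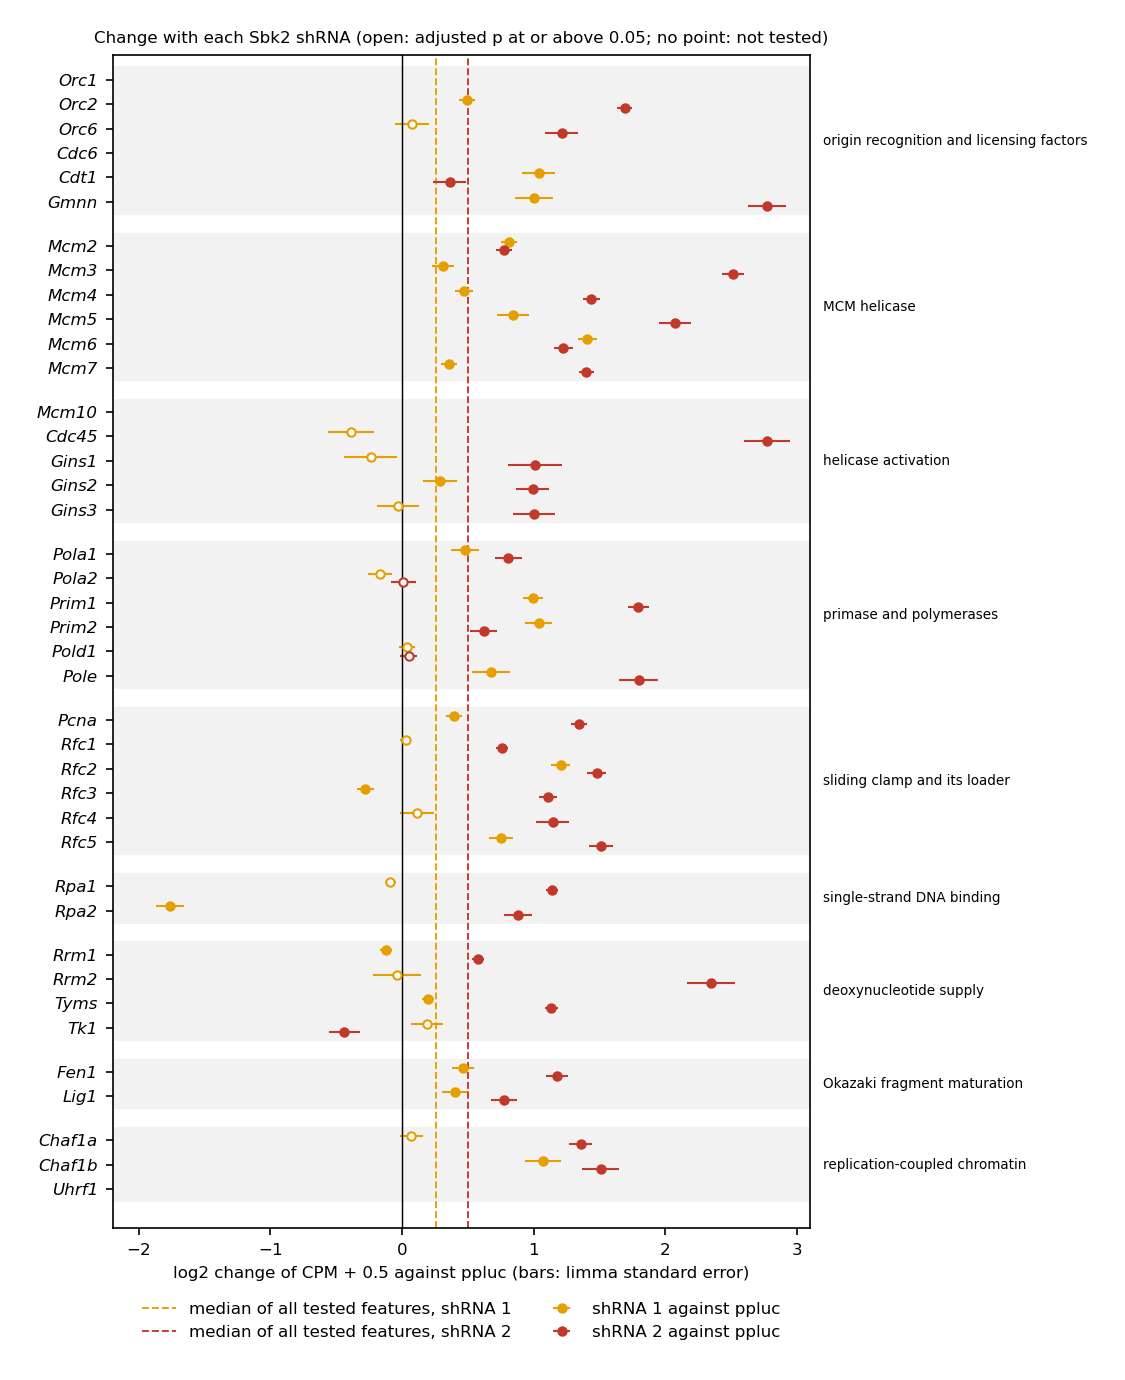
Log2 change of CPM + 0.5 against ppluc on the x axis for each tested gene, by role, under shRNA 1 in orange and shRNA 2 in red; bars are limma standard errors, open points did not pass an adjusted p of 0.05, and dashed lines mark the median of all tested features. Under shRNA 2 the points of Gmnn and Cdc45 reach 2.77 and that of Tk1 lies at -0.44, while under shRNA 1 Rpa2 lies at -1.76.

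Promoter sequences are shown for the 3 members with the largest change under shRNA 2 (Gmnn, Cdc45 and Mcm3) and the 2 with the smallest (Pold1 and Pola2), so that the presence of E2F words can be read beside the response. Each window runs from 250 bases before the annotated start to 50 bases after it, 5′ to 3′ on the gene's strand, from RefSeq on GRCr8; that build differs from the Rnor_6.0 of the deposited loci. Capitals mark an E2F word (TTTCCCGC, TTTGGCGC, TTTGCCGC or TTTCGCGC) or a CCAAT box, on either strand. Positions are counted from the start, and E2F words on opposite strands can overlap each other.
Gmnn, chr17:40729584-40729883, plus strand: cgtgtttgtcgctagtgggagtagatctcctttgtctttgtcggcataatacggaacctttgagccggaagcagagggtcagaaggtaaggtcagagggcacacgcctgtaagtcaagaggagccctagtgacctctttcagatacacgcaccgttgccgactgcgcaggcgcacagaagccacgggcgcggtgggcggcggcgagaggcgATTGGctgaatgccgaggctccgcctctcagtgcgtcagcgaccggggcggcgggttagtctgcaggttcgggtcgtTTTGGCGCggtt
Cdc45, chr11:95689928-95690227, plus strand: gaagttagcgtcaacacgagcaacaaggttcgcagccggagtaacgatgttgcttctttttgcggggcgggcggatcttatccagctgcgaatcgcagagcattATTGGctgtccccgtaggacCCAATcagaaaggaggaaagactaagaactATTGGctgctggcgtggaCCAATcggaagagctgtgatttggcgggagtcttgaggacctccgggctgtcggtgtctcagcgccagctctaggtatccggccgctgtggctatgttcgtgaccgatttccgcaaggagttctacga
Mcm3, chr9:30733697-30733996, minus strand: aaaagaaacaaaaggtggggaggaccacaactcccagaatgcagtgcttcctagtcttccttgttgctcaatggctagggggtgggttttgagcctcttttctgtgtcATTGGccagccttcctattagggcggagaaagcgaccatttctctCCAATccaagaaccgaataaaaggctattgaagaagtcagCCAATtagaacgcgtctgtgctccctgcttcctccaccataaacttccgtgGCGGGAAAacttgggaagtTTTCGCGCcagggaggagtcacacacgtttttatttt
Pold1, chr1:104172933-104173232, minus strand: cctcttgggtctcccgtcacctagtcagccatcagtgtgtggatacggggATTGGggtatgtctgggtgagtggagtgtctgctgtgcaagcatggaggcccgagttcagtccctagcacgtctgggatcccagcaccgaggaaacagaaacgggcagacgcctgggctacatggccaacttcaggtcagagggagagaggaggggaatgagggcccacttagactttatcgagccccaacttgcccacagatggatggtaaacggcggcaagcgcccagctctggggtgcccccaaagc
Pola2, chr1:212680493-212680792, minus strand: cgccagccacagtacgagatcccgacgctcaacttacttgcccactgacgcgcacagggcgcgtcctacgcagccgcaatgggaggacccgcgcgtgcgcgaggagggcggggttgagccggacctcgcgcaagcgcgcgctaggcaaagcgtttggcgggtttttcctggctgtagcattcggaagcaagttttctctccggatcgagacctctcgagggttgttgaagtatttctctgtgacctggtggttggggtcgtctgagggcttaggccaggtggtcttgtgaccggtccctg

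In these windows Mcm3 held 2 E2F words, at -6 and 13, and 3 CCAAT boxes. Gmnn held 1 E2F word at 38 and 1 CCAAT box at -39. Cdc45 held none of the 4 E2F words and 4 CCAAT boxes, between -146 and -78. On the log2 scale used here its change was close to that of Gmnn. That scale understates changes at low CPM, and more so for Gmnn, the scarcer gene under ppluc, so the sizes of their changes cannot be equated. Pold1 held 1 CCAAT box, and Pola2 neither. Of the 40 members 36 had a window, and 15 of these (41.7%) held an E2F word, against 2.25% of 27457 rat promoters of the same length. A CCAAT box was present in 63.9% of the 36 and in 37.7% of all promoters, and a GC box, GGGCGG, in 63.9% and 34.9%. The cell-cycle homology words TTTGAA and TTCGAA occurred in 13.9% of the members and 19.5% of all. The 15 members with an E2F word had a median shRNA 2 change of 1.11, and the 19 tested members without one 1.18. Only exact matches to the 4 words were counted. TTTGGCGG, which differs from TTTGGCGC in its last letter, stood uncounted in the windows of Cdc45 and Pola2. A match describes letters only, and absence from this window says nothing about a factor.

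Among the origin and licensing factors, Orc2, a subunit of the origin recognition complex, was the most abundant in TPM. Its level was 18.7, 19.6 and 19.7 CPM in the untransduced libraries, 21.0, 21.0 and 21.7 under ppluc, 29.3, 29.8 and 31.2 under shRNA 1 and 66.6, 70.8 and 72.0 under shRNA 2. The 4 groups did not overlap and stood in that order. Orc2 rose by 0.49 ± 0.06 under shRNA 1 (limma adjusted p = 3.9e-07) and by 1.69 ± 0.06 under shRNA 2 (limma adjusted p = 6.6e-15), or 0.23 and 1.16 scaled. Orc6, another subunit, did not pass under shRNA 1 (0.08 ± 0.13) and rose under shRNA 2 by 1.21 ± 0.13, from a mean of 3.09 to 7.86 CPM, and the shRNA 2 to shRNA 1 difference of 1.14 ± 0.13 passed as well (limma adjusted p = 1.3e-07).

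Cdt1 and Gmnn, the loading factor and its inhibitor, moved in different proportions with the 2 shRNAs. Cdt1 was at 3.08, 4.10 and 4.32 CPM in untransduced cells, 4.70, 5.60 and 6.23 under ppluc, 11.1, 11.9 and 12.4 under shRNA 1 and 6.85, 6.89 and 7.84 under shRNA 2. The shRNA 1 libraries were the highest and overlapped none of the others. Cdt1 rose by 1.04 ± 0.13 under shRNA 1 (limma adjusted p = 6.6e-07) and by 0.36 ± 0.13 under shRNA 2 (limma adjusted p = 0.012); scaled, the latter was -0.14 and did not pass. It was lower under shRNA 2 than under shRNA 1 by test (log2 change -0.68 ± 0.13, limma adjusted p = 7.7e-05). Gmnn, at chromosome 17, 42302540 to 42310783 of Rnor_6.0, stood at 0.130 to 0.286 CPM in untransduced cells, 0.130 to 0.231 under ppluc, 0.850 to 0.925 under shRNA 1 and 3.84 to 4.58 under shRNA 2. Both control groups overlapped, and each shRNA group lay above them and apart from the other. Only the shRNA libraries reached the filter level of 0.5 CPM, so Gmnn was tested through the groups where it was high. Gmnn rose by 1.00 ± 0.14 under shRNA 1 and by 2.77 ± 0.14 under shRNA 2 (limma adjusted p = 5.4e-06 and 2.1e-12), the shRNA 2 mean being 22.3 times that of ppluc. Per length, the Cdt1 level was 48.0 times that of Gmnn under ppluc, 8.30 times under shRNA 1 and 1.32 times under shRNA 2 in the authors' mean TPM. In untransduced cells that ratio was 15.1; the TPM of Gmnn was 0.161 there and 0.072 under ppluc, although its CPM were nearly equal, at 0.196 and 0.189. The ratios of both control groups rest on few Gmnn reads and are imprecise.

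Orc1, the large origin-binding subunit, and Cdc6, the loader that joins it, were below the filter and are given in reads. Orc1 had 0, 1 and 0 reads in untransduced libraries A to C, 1, 2 and 5 under ppluc, 6, 11 and 9 under shRNA 1 and 11, 23 and 42 under shRNA 2. Cdc6 had 0, 0 and 1 reads in untransduced cells, 1, 1 and 3 under ppluc, 2, 1 and 2 under shRNA 1 and 7, 16 and 26 under shRNA 2. Both were thus highest in the shRNA 2 libraries, where library A held the fewest reads and library C the most. No test was made on these counts.

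All 6 subunits of the Mcm2 to Mcm7 ring rose with both shRNAs, with medians of 0.64 and 1.42; scaled, all 6 still rose under shRNA 2, and Mcm3 and Mcm7 no longer passed under shRNA 1. Of all features, 54.7% rose under shRNA 1 and 65.0% under shRNA 2, with medians of 0.26 and 0.50. Scaled, 33.8% and 40.2% of all features rose. Their summed level was 101 to 104 CPM in untransduced libraries, 105 to 115 under ppluc, 175 to 181 under shRNA 1 and 286 to 301 under shRNA 2. Mcm3, at chromosome 9, 26914057 to 26932201 of Rnor_6.0, had the largest change. It was at 5.41, 5.42 and 5.76 CPM in untransduced cells, 6.16, 6.26 and 6.59 under ppluc, 7.70, 7.83 and 8.49 under shRNA 1 and 37.0, 38.6 and 40.0 under shRNA 2. The step to shRNA 2 was far larger than any spread within a group. Mcm3 rose by 0.31 ± 0.08 under shRNA 1 (limma adjusted p = 0.0025) and by 2.51 ± 0.08 under shRNA 2 (limma adjusted p = 5.0e-15; 1.99 scaled), the 98.0th percentile of all features tested.

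Mcm5 differed already between the control groups, with 0.453, 0.513 and 0.659 CPM in untransduced cells and 1.43, 1.54 and 1.64 under ppluc. Under shRNA 1 it stood at 2.94, 3.24 and 3.27 CPM and under shRNA 2 at 7.87, 7.99 and 8.41. Each group lay above the one before. Its changes were 0.97 ± 0.12 for ppluc against untransduced, 0.84 ± 0.12 for shRNA 1 against ppluc and 2.08 ± 0.12 for shRNA 2 against ppluc (limma adjusted p = 2.3e-06, 6.1e-06 and 1.2e-11). Mcm6 followed another order, with 9.49 to 10.4 CPM in untransduced cells, 13.1 to 15.3 under ppluc, 37.1 to 38.9 under shRNA 1 and 32.0 to 34.5 under shRNA 2. The shRNA 1 libraries were the highest. Mcm6 rose by 1.41 ± 0.07 under shRNA 1 and 1.23 ± 0.07 under shRNA 2, and the difference of -0.18 ± 0.07 between the shRNAs passed the test (limma adjusted p = 0.028) but did not without shRNA 1 library A or B or shRNA 2 library A, at -0.18, -0.17 and -0.15.

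Mcm7, whose introns carry the miRNA genes Mir25, Mir93 and Mir106b, was the most abundant subunit in TPM. It held 38.3, 39.6 and 39.7 CPM in untransduced cells, 32.8, 35.6 and 36.4 under ppluc, 41.8, 45.7 and 47.1 under shRNA 1 and 88.4, 91.9 and 99.2 under shRNA 2. It fell under ppluc by 0.16 ± 0.06 against untransduced cells (limma adjusted p = 0.026), against the direction of Mcm2, Mcm4, Mcm5 and Mcm6; scaled, or without untransduced library A, untransduced library B or ppluc library B, that change no longer passed, at -0.13, -0.16, -0.16 and -0.12. Mcm7 then rose by 1.40 ± 0.06 under shRNA 2. Mcm4 rose by 1.44 ± 0.07 under shRNA 2, from 25.9 to 70.9 CPM, while Mcm2 rose by 0.81 ± 0.06 under shRNA 1 and 0.77 ± 0.06 under shRNA 2; the difference of -0.04 ± 0.06 between the shRNAs did not pass (limma adjusted p = 0.60), though scaled it was -0.30 and did. The 6 mRNAs, whose products are needed in equal numbers in the ring, were unequal in every group: the ratio of the highest subunit, Mcm7, to the lowest, Mcm5, was 82.3 in the authors' mean TPM of untransduced cells, 29.7 under ppluc, 15.7 under shRNA 1 and 14.6 under shRNA 2.

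**Figure D3:**
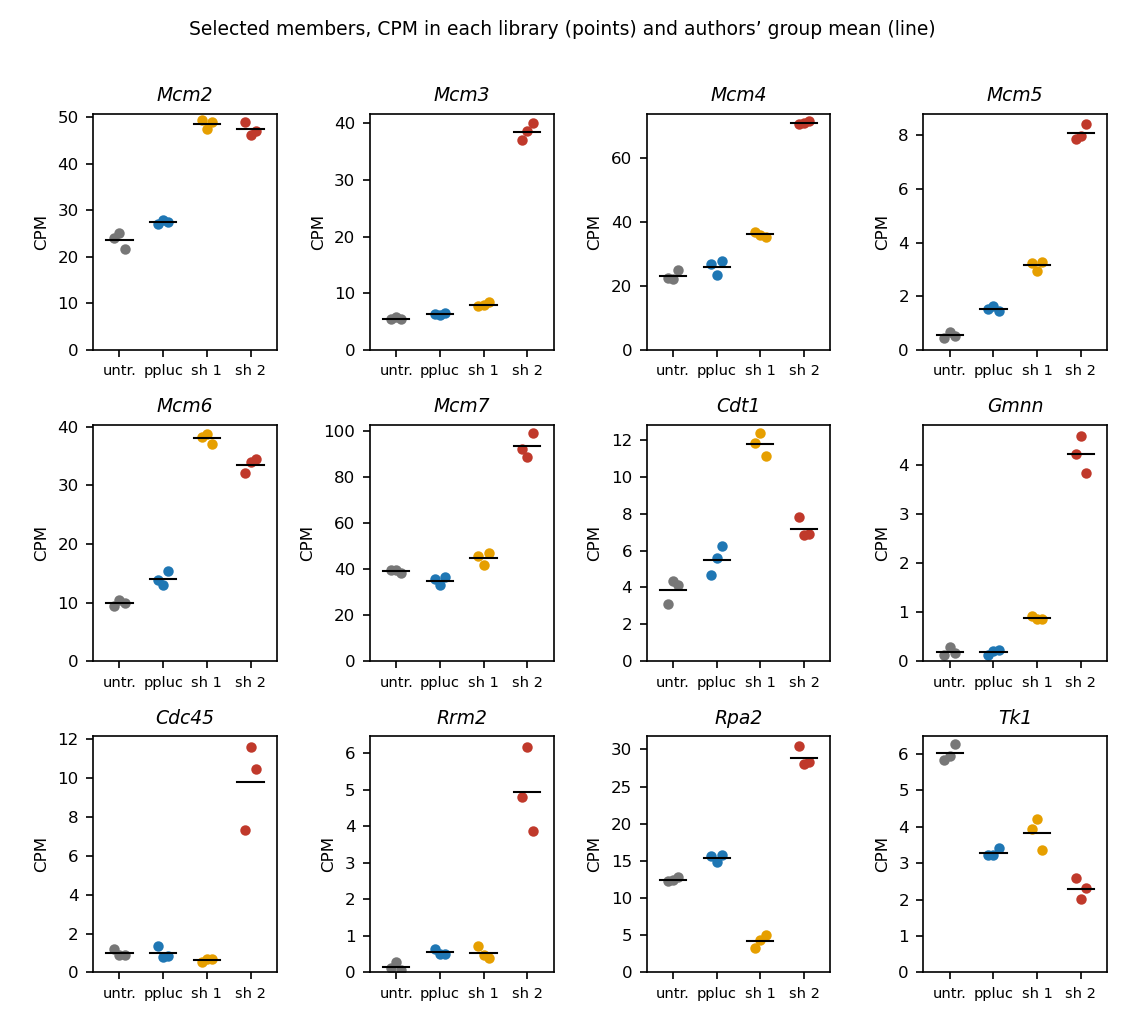
CPM of 12 members in each library (points) with the authors' group mean (line), from untransduced cells at the left to shRNA 2 at the right; every y axis starts at 0. Mcm3, Cdc45 and Rrm2 are high under shRNA 2 alone, Mcm6 and Cdt1 peak under shRNA 1, Rpa2 dips under shRNA 1 and Tk1 is highest in untransduced cells.

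Of the genes that activate the loaded ring, Cdc45, at chromosome 11, 86329012 to 86358453 of Rnor_6.0, had the largest change between the 2 shRNAs of all members. It stood at 0.912, 0.916 and 1.23 CPM in untransduced cells, 0.796, 0.863 and 1.36 under ppluc, 0.562, 0.668 and 0.689 under shRNA 1 and 7.35, 10.5 and 11.6 under shRNA 2. Only the shRNA 2 libraries stood above the control range, and those of shRNA 1 lay below all ppluc libraries. Cdc45 rose by 2.77 ± 0.17 under shRNA 2 (limma adjusted p = 3.1e-11), and the change under shRNA 1 was -0.38 ± 0.17 and did not pass (limma adjusted p = 0.055), although it did when scaled, at -0.56. The shRNA 2 to shRNA 1 difference was 3.16 ± 0.17 (limma adjusted p = 7.4e-12), the 99.6th percentile of all features. Gins1, Gins2 and Gins3, subunits of the GINS complex, rose under shRNA 2 by 1.01 ± 0.20, 0.99 ± 0.13 and 1.00 ± 0.16. Gins3, the most abundant of them in TPM, went from 1.62 to 2.13 CPM under ppluc and 1.40 to 2.14 under shRNA 1 to 4.15 to 4.34 under shRNA 2. Mcm10, which helps the helicase to start, was below the filter, with 2, 1 and 4 reads in untransduced libraries A to C, 1, 3 and 1 under ppluc, 1, 2 and 2 under shRNA 1 and 5, 16 and 24 under shRNA 2.

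Of the 6 genes of primase and the replicative polymerases, 4 rose under shRNA 2 and 2 did not pass; scaled, 3 rose and 2 fell. The 4 of 6 lay near the share of all features that rose, 65.0%. Scaled, 40.2% of all features rose and 40.8% fell. Prim1, the catalytic primase subunit, was at 9.25 to 10.1 CPM in untransduced cells, 9.19 to 11.0 under ppluc, 19.6 to 21.5 under shRNA 1 and 36.0 to 36.9 under shRNA 2. It rose by 1.00 ± 0.08 and 1.80 ± 0.08 (limma adjusted p = 2.2e-09 and 1.8e-13). Prim2, its large partner subunit, was instead highest under shRNA 1, at 14.0, 14.5 and 16.3 CPM, against 9.73, 11.4 and 12.0 under shRNA 2 and 6.63, 6.94 and 7.42 under ppluc. Prim2 rose by 1.04 ± 0.10 under shRNA 1 and by 0.62 ± 0.10 under shRNA 2, the latter 0.11 and not past the test when scaled, and the shRNA 2 to shRNA 1 difference was -0.42 ± 0.10 (limma adjusted p = 0.0010).

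Pole, the catalytic subunit of the leading-strand polymerase, rose by 0.68 ± 0.15 and 1.80 ± 0.15, from 2.40 CPM under ppluc to 4.12 and 9.72. Pola1, the catalytic subunit of the polymerase that extends the primer, fell under ppluc: the untransduced libraries held 15.6, 16.2 and 17.2 CPM and the ppluc libraries 8.50, 10.9 and 11.7 (log2 change -0.64 ± 0.11, limma adjusted p = 4.8e-05). Under shRNA 1 it was at 12.7, 15.3 and 15.9 CPM and under shRNA 2 at 18.3, 18.3 and 18.6, and the change of 0.17 ± 0.11 between shRNA 2 and untransduced cells did not pass. Pold1, the catalytic subunit of the lagging-strand polymerase, was at 31.2 to 34.6 CPM in untransduced cells, 32.9 to 33.1 under ppluc, 32.2 to 36.5 under shRNA 1 and 33.1 to 35.6 under shRNA 2. Its CPM hardly moved, with a shRNA 2 change of 0.05 ± 0.06 (limma adjusted p = 0.46), and relative to the bulk of features it fell, by 0.48 when scaled (log2 change -0.48 ± 0.06, limma adjusted p = 2.1e-06). Pola2, which holds the primase and polymerase together, had these values: 9.79 to 11.0 CPM under ppluc, 8.62 to 10.1 under shRNA 1 and 9.83 to 11.1 under shRNA 2, with a shRNA 2 change of 0.01 ± 0.09, or -0.50 scaled. Its locus overlaps that of Cdc42ep2 by 7643 bases, and how reads in the overlap were assigned was not stated in the labels.

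All 6 genes of the sliding clamp and its loader rose under shRNA 2, as deposited and scaled, where 65.0% and 40.2% of all features rose. Under shRNA 1 3 rose, Rfc3 fell and 2 did not pass, near the shares of all features, 54.7% risen and 18.7% fallen. Pcna, the ring that tethers polymerases to DNA, was at 44.9, 45.0 and 47.3 CPM in untransduced cells, 39.2, 41.4 and 41.7 under ppluc, 51.5, 53.8 and 56.1 under shRNA 1 and 93.7, 110 and 110 under shRNA 2. No groups overlapped. Pcna rose by 0.40 ± 0.06 under shRNA 1, or 0.12 and not past the test when scaled, and by 1.34 ± 0.06 under shRNA 2 (limma adjusted p = 1.1e-05 and 3.1e-13). Rfc2, a small loader subunit, rose with both shRNAs, from 11.9 to 12.5 CPM under ppluc to 27.8 to 30.2 and 33.3 to 36.9 (1.21 ± 0.07 and 1.48 ± 0.07), and the difference of 0.27 ± 0.07 between the shRNAs passed as deposited but not scaled, at 0.01. Rfc5, another, rose by 0.76 ± 0.09 and 1.51 ± 0.09.

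Rfc3, a further small subunit, moved in opposite directions. Its libraries stood at 19.5, 20.0 and 21.0 CPM under ppluc, 15.7, 17.0 and 17.0 under shRNA 1 and 42.4, 44.6 and 44.9 under shRNA 2. The shRNA 1 libraries lay below and the shRNA 2 libraries above all ppluc libraries. The changes were -0.28 ± 0.07 and 1.11 ± 0.07 (limma adjusted p = 0.0013 and 2.3e-11), or -0.55 and 0.58 scaled. Rfc4 rose by 1.14 ± 0.13 under shRNA 2, and its rise of 0.35 ± 0.13 under ppluc over untransduced cells (limma adjusted p = 0.027), where Pcna and Rfc1 fell, did not pass without untransduced library A or ppluc library A or C, at 0.22, 0.33 and 0.29. Without a filter that rise did not pass either (limma adjusted p = 0.075). Rfc1, the large loader subunit, rose by 0.76 ± 0.04 under shRNA 2, from 70.0 to 73.3 CPM under ppluc to 121 in each library.

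The 2 listed subunits of RPA, which coats single-stranded DNA, parted under shRNA 1. Rpa1, its large subunit, was at 91.4 to 96.3 CPM in untransduced cells, 107 to 117 under ppluc, 103 to 106 under shRNA 1 and 242 to 250 under shRNA 2. It rose by 1.14 ± 0.04 under shRNA 2 (limma adjusted p = 3.4e-14), and its shRNA 1 change of -0.09 ± 0.04 did not pass (limma adjusted p = 0.075) though it did when scaled, at -0.36. Rpa2, the middle subunit, whose locus is chromosome 5, 150957001 to 150968269 of Rnor_6.0, was at 12.2, 12.4 and 12.8 CPM in untransduced cells, 14.8, 15.7 and 15.8 under ppluc, 3.34, 4.37 and 5.05 under shRNA 1 and 28.0, 28.2 and 30.4 under shRNA 2. It was lowest under shRNA 1 and highest under shRNA 2 with no overlap. Rpa2 fell by 1.76 under shRNA 1 (log2 change -1.76 ± 0.11, limma adjusted p = 6.4e-11), the 0.6th percentile of all features and the largest fall among the members, and rose by 0.88 ± 0.11 under shRNA 2 (limma adjusted p = 3.3e-07). The TPM ratio of Rpa1 to Rpa2 was 5.43 in untransduced cells, 5.38 under ppluc, 21.9 under shRNA 1 and 6.74 under shRNA 2.

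In deoxynucleotide supply, Rrm2, the small subunit of ribonucleotide reductase that limits the enzyme in S phase, changed more than the large subunit Rrm1. Rrm2 was at 0.057, 0.130 and 0.286 CPM in untransduced cells, 0.505, 0.514 and 0.652 under ppluc, 0.394, 0.486 and 0.727 under shRNA 1 and 3.87, 4.80 and 6.16 under shRNA 2. Groups ppluc and shRNA 1 overlapped, with untransduced cells below and shRNA 2 above them. Rrm2 rose by 0.70 ± 0.18 under ppluc over untransduced cells and by 2.35 ± 0.18 under shRNA 2 over ppluc (limma adjusted p = 0.0033 and 6.6e-10). Rrm1 was at 90.9 to 92.8 CPM under ppluc, 82.4 to 87.1 under shRNA 1 and 133 to 142 under shRNA 2. It fell slightly under shRNA 1 (log2 change -0.12 ± 0.04, limma adjusted p = 0.022) and rose by 0.57 ± 0.04 under shRNA 2 (limma adjusted p = 6.2e-10), the latter 0.04 and not past the test when scaled. In TPM, Rrm1 exceeded Rrm2 by 105 times in untransduced cells, 30.0 times under ppluc, 19.1 times under shRNA 1 and 4.36 times under shRNA 2. The untransduced ratio rests on few Rrm2 reads, at 0.057 to 0.286 CPM, and is imprecise.

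Tyms, thymidylate synthase, makes thymidylate from deoxyuridylate. It was at 38.0 to 38.9 CPM in untransduced cells, 45.7 to 47.5 under ppluc, 51.4 to 54.7 under shRNA 1 and 99.1 to 107 under shRNA 2, and rose by 0.20 ± 0.05 under shRNA 1 and 1.13 ± 0.05 under shRNA 2 (limma adjusted p = 0.0013 and 1.3e-13); scaled, the shRNA 1 change was -0.07 and did not pass. Tk1, cytosolic thymidine kinase, salvages thymidine and went the other way. Its libraries held 5.83, 5.93 and 6.27 CPM in untransduced cells, 3.21, 3.24 and 3.41 under ppluc, 3.35, 3.93 and 4.22 under shRNA 1 and 2.01, 2.31 and 2.58 under shRNA 2. It was highest in untransduced cells and lowest under shRNA 2, with no overlap of either with the rest. Tk1 fell under ppluc (log2 change -0.78 ± 0.12, limma adjusted p = 2.0e-05) and fell further under shRNA 2 (log2 change -0.44 ± 0.12, limma adjusted p = 0.0023; -0.89 scaled). It was the only tested member that fell under shRNA 2 before scaling.

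Fen1, the flap nuclease, and Lig1, the ligase that joins Okazaki fragments, rose with both shRNAs. Fen1 went from 14.9 to 16.4 CPM under ppluc to 19.8 to 22.9 and 32.6 to 37.7, changes of 0.46 ± 0.08 and 1.18 ± 0.08. Lig1 was at 6.44 to 7.77 CPM in untransduced cells, 8.94 to 9.39 under ppluc, 11.3 to 13.3 under shRNA 1 and 14.2 to 17.8 under shRNA 2. The 4 groups did not overlap. Lig1 rose by 0.41 ± 0.10 and 0.77 ± 0.10 (limma adjusted p = 0.0014 and 8.4e-07), the shRNA 1 change being 0.14 and not past the test when scaled.

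Chaf1a and Chaf1b encode subunits of CAF-1, which deposits histones behind the fork. Chaf1a, the more abundant in TPM, was at 9.97 to 12.7 CPM in untransduced cells, 12.4 to 13.3 under ppluc, 13.0 to 14.6 under shRNA 1 and 32.5 to 34.7 under shRNA 2. It rose by 1.36 ± 0.09 under shRNA 2 (limma adjusted p = 4.7e-11), and under shRNA 1 its change of 0.07 ± 0.09 did not pass. Chaf1b went from 1.28 to 1.75 CPM under ppluc to 3.13, 3.46 and 4.16 under shRNA 1 and 4.83, 5.01 and 5.17 under shRNA 2, and rose by 1.07 ± 0.14 and 1.51 ± 0.14 (limma adjusted p = 1.4e-06 and 6.9e-09). Uhrf1, which reads hemimethylated DNA behind the fork, was below the filter, with 8, 9 and 6 reads in untransduced libraries A to C, 6, 10 and 2 under ppluc, 9, 15 and 17 under shRNA 1 and 17, 10 and 13 under shRNA 2; the last 2 groups overlapped.

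The counts of the lists that follow stand beside 65.0% of all features that rose and 21.1% that fell under shRNA 2, and 54.7% and 18.7% under shRNA 1; scaled, these shares were 40.2% and 40.8%, and 33.8% and 33.7%. Genes of these lists that reached the filter outside the shRNA 2 libraries were not counted apart. The counts can therefore include genes tested only because they were high under shRNA 2. Other genes of the replication machinery were counted from a list of 35, of which 34 were in the table and tested. Under shRNA 2, 33 of the 34 rose and Pold2 fell, with a median of 1.02; under shRNA 1, 24 rose and 1 fell with a median of 0.48. Scaled, the counts were 22 higher and 2 lower under shRNA 2, and 16 higher and 5 lower under shRNA 1. Donson, a factor of helicase assembly, rose from 2.62 to 3.39 CPM under ppluc to 5.92 to 6.72 and 19.0 to 23.9 (0.94 ± 0.12 and 2.59 ± 0.12). Topbp1, an activator of the Atr kinase, rose by 0.59 ± 0.06 under shRNA 1 and 1.13 ± 0.06 under shRNA 2. Ctc1, of the telomere-capping CST complex, rose by 0.22 ± 0.05 and 0.79 ± 0.05, the former not past the test when scaled. Top1, a topoisomerase, rose by 0.62 ± 0.05 and 0.55 ± 0.05, and Rnaseh2a, a subunit of ribonuclease H2, by 0.53 ± 0.05 and 0.44 ± 0.05; scaled, neither passed under shRNA 2. Pold2, the accessory subunit of the polymerase of Pold1, went from 68.8 to 75.8 CPM under ppluc to 62.0 to 64.4 under shRNA 1 and 30.1 to 38.4 under shRNA 2 (log2 changes -0.20 ± 0.07 and -1.10 ± 0.07, limma adjusted p = 0.015 and 2.6e-11). Cdc7, the kinase that fires origins, had group means of 3.36 CPM without a vector, 5.17 for ppluc, 7.64 for shRNA 1 and 12.8 for shRNA 2 and rose with each shRNA (0.52 ± 0.10 and 1.23 ± 0.10). Its activator Dbf4 was scarce, at 0.228, 0.245, 0.385 and 0.698 CPM, and rose under shRNA 2 as deposited (0.75 ± 0.23, limma adjusted p = 0.0060) but not scaled. Only its shRNA 2 mean was above the filter level of 0.5 CPM, so its rise is given as a description.

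Among 15 genes of nucleotide synthesis, 13 rose and 2 fell under shRNA 2, and 11 rose and 3 fell under shRNA 1; scaled, 11 rose and 3 fell, and 8 rose and 4 fell. Cad, which starts pyrimidine synthesis, rose by 0.86 ± 0.06 under shRNA 1 and 1.33 ± 0.06 under shRNA 2. Shmt1, a folate-cycle enzyme, rose by 0.90 ± 0.10 and 2.03 ± 0.10. Dck, deoxycytidine kinase, rose by 2.31 ± 0.13 under shRNA 2, from a mean of 6.07 to 31.6 CPM, unlike the other salvage kinase Tk1. Ctps1, CTP synthase, fell under shRNA 1 (log2 change -0.58 ± 0.05) and was 1.02 ± 0.05 higher under shRNA 2 than under shRNA 1. Of 18 genes of the replication stress checkpoint and repair, 17 were tested, of which 16 rose and 1 did not pass under shRNA 2, and 11 rose and 2 fell under shRNA 1; scaled, 12 rose and 2 fell, and 6 rose and 4 fell, the 6 of 17 being near the share of all features. Brca2, of recombination repair, rose by 0.91 ± 0.11 under shRNA 1 and 1.85 ± 0.11 under shRNA 2. The checkpoint kinase Atr rose by 0.31 ± 0.07 and 1.19 ± 0.07, the former not past the test when scaled, and the checkpoint kinase Chek2, with means of 0.618 CPM under ppluc, 2.39 under shRNA 1 and 3.96 under shRNA 2, by 1.37 ± 0.13 and 1.99 ± 0.13. Rad17, which loads the checkpoint clamp, rose by 0.75 ± 0.07 and 0.92 ± 0.07. Chek1, a checkpoint kinase, was at 154 CPM in untransduced cells, 207 under ppluc, 183 under shRNA 1 and 333 under shRNA 2. Wee1, which restrains the cyclin-dependent kinases, rose by 1.13 ± 0.05 under shRNA 1 and 0.32 ± 0.05 under shRNA 2, the latter -0.21 and a fall when scaled.

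The regulators of entry into S phase did not move together. Of 28 listed, 27 were in the table and 23 were tested: 17 rose and 2 fell under shRNA 2, and 16 rose and 2 fell under shRNA 1; scaled, 12 rose and 4 fell, and 14 rose and 5 fell. As deposited, the 17 of 23 under shRNA 2 lay near the share of all features, 65.0%. Scaled, the 14 of 23 under shRNA 1 lay above that share, 33.8%. Ccne2, cyclin E2, was at 2.06 to 3.19 CPM in untransduced cells, 2.85 to 3.09 under ppluc, 7.73 to 8.59 under shRNA 1 and 15.6 to 25.2 under shRNA 2, and rose by 1.30 ± 0.15 and 2.59 ± 0.15 (limma adjusted p = 3.6e-07 and 1.1e-11). Ccne1, cyclin E1, rose by 0.70 ± 0.19 and 0.90 ± 0.19. Their kinase Cdk2 rose under shRNA 1, from 28.0 to 30.3 CPM under ppluc to 49.7 to 50.6, and fell under shRNA 2 to 18.4 to 20.3 (log2 changes 0.78 ± 0.06 and -0.58 ± 0.06, limma adjusted p = 2.3e-09 and 6.1e-08). Ccnd3, cyclin D3, did likewise (0.61 ± 0.05 and -0.99 ± 0.05). Rbl2, the Rb family member p130 of resting cells, rose by 1.66 ± 0.06 under shRNA 2 and fell slightly under shRNA 1 (log2 change -0.17 ± 0.06, limma adjusted p = 0.012). Cdk4, the kinase of the D cyclins, rose by 0.26 ± 0.05 under shRNA 1, which did not pass when scaled, and 1.18 ± 0.05 under shRNA 2. E2f5, a partner of the Rb family, rose by 1.44 ± 0.12 and 2.01 ± 0.12. Ccna2, cyclin A2 of S phase and mitosis, was nearly silent, with 1, 4, 12 and 22 reads summed over the 3 libraries of untransduced, ppluc, shRNA 1 and shRNA 2 cells, and E2f7 had 1, 0, 0 and 39. E2f1 is not analysed here.

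Inhibitors of the cyclin-dependent kinases were measured in the same libraries. Cdkn1a, encoding p21, had authors' mean levels of 435 CPM in untransduced cells, 1354 under ppluc, 2038 under shRNA 1 and 4454 under shRNA 2. Its reads could not be split with certainty between the ppluc or between the shRNA 2 libraries. With the widest split within a set limit on spread, it rose by 0.60 ± 0.11 under shRNA 1 and 1.71 ± 0.11 under shRNA 2 (limma adjusted p = 8.8e-05 and 4.5e-11). Splits beyond that limit were not used. Cdkn2a, encoding p16 and Arf, rose by 1.30 ± 0.05 under shRNA 2, from 98.5 to 102 CPM under ppluc to 242 to 258. Cdkn1c, encoding p57, rose under ppluc over untransduced cells, from 134 to 709 CPM (2.40 ± 0.08), and fell under shRNA 2 to 530. Of the 7 listed, 6 were in the table: 4 rose and 2 fell under shRNA 2, and 4 rose and 1 fell under shRNA 1; scaled, 2 rose and 3 fell, and 3 rose and 2 fell. The 4 of 6 under shRNA 2 lay near the share of all features. Cdkn1b, encoding p27, rose by 0.62 ± 0.05 under shRNA 1 and 0.19 ± 0.05 under shRNA 2, the latter -0.35 and a fall when scaled, and Cdkn2b, encoding p15, fell under both shRNAs (log2 changes -0.48 ± 0.05 and -0.33 ± 0.05).

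Of 26 genes of mitosis, 25 were in the table and 24 were tested, and 23 rose and Anln fell under shRNA 2 (median 1.37), while 15 rose and 1 fell under shRNA 1 (median 0.67); scaled, 19 rose and 2 fell, and 14 rose and 3 fell. As deposited, the 15 of 24 under shRNA 1 lay near the share of all features, 54.7%. Scaled, the 14 of 24 lay above that share, 33.8%. Kif11, a spindle motor, rose from a mean of 0.848 CPM under ppluc to 3.56 under shRNA 1 and 9.09 under shRNA 2 (1.60 ± 0.15 and 2.84 ± 0.15). Tpx2, a spindle assembly factor, rose by 0.89 ± 0.12 and 2.00 ± 0.12, Prc1, which bundles microtubules of the central spindle, by 1.27 ± 0.07 and 0.84 ± 0.07, and the mitotic kinase Plk1 by 1.55 ± 0.14 and 1.66 ± 0.14. Cdk1, the mitotic kinase, was at 0.421 to 0.770 CPM in untransduced cells, 0.385 to 0.444 under ppluc, 1.77 to 2.84 under shRNA 1 and 4.89 to 5.36 under shRNA 2. It rose by 1.59 ± 0.16 and 2.59 ± 0.16 (limma adjusted p = 5.1e-08 and 2.0e-11). Mki67, the proliferation antigen Ki-67, did not follow it. Mki67 was highest in untransduced cells, at 9.38 to 10.4 CPM, and stood at 5.96 to 6.71 under ppluc, 5.32 to 6.57 under shRNA 1 and 7.19 to 9.31 under shRNA 2; its shRNA 2 change of 0.33 ± 0.11 (limma adjusted p = 0.011) was -0.18 and did not pass when scaled.

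**Figure D4:**
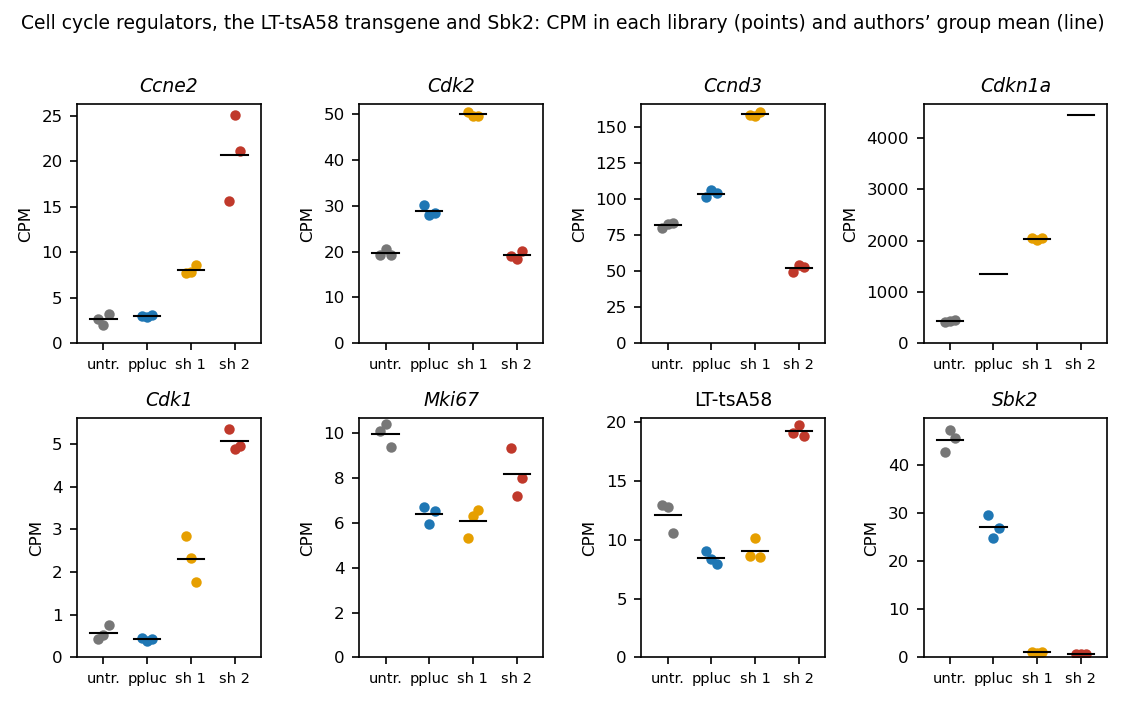
CPM in each library (points) and authors' group mean (line) for 5 cell cycle regulators, Mki67, the LT-tsA58 transgene and Sbk2, from untransduced cells at the left to shRNA 2 at the right; y axes start at 0, and no points are drawn for Cdkn1a where libraries could not be split. Ccne2, Cdk1 and Cdkn1a are highest under shRNA 2, whereas Cdk2 and Ccnd3 are highest under shRNA 1 and LT-tsA58 stands near 19 CPM under shRNA 2.

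Other values moved with these genes. LT-tsA58 mRNA was at 10.5, 12.8 and 13.0 CPM in untransduced cells, 7.95, 8.35 and 9.05 under ppluc, 8.54, 8.59 and 10.1 under shRNA 1 and 18.8, 19.1 and 19.7 under shRNA 2. The shRNA 2 libraries were above all others, by 1.14 ± 0.10 over ppluc (limma adjusted p = 2.5e-09; 0.62 scaled), while the shRNA 1 change of 0.10 ± 0.10 did not pass. Its part in the rise of the replication genes was not tested. The 7 cardiomyocyte markers (Myh6, Myl4, Myl7, Nppa, Tnnt2, Actc1 and Ryr2) summed to 7.71% of the mRNA in untransduced cells, 7.15% under ppluc, 3.43% under shRNA 1 and 2.08% under shRNA 2, and all 7 fell with each shRNA, as deposited and scaled. In bulk RNA, fewer cells of a type and less RNA per cell cannot be told apart.

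Markers of other cell types were summed in the same libraries. Of the fibroblast markers only Col1a1 reached the filter, and of the macrophage markers only Lyz2. Of the endothelial markers only Kdr and Vwf did, and of the epicardial markers only Upk3b and Msln. Of 5 macrophage markers, Ptprc and Adgre1 were at 0 in all libraries, and the sum was 0.086 to 0.324 CPM in untransduced cells, 0.063 to 0.287 under ppluc, 0.121 to 0.264 under shRNA 1 and 0.719 to 1.21 under shRNA 2. Of 5 fibroblast markers, Lum and Tcf21 were at 0, and the sum was 76.4 to 87.7 CPM in untransduced cells, 115 to 149 under ppluc, 24.6 to 28.6 under shRNA 1 and 14.6 to 20.2 under shRNA 2. Endothelial markers, 4 of 5 in the table and Cdh5 at 0, summed to 130 to 152, 142 to 153, 209 to 224 and 56.3 to 97.7 CPM in the same order of groups, and the 3 epicardial markers to 19.4 to 21.8, 29.3 to 33.3, 38.1 to 41.8 and 4.85 to 7.35 CPM. The 4 smooth muscle markers summed to a mean of 7104 CPM in untransduced cells, 11123 under ppluc, 7380 under shRNA 1 and 4651 under shRNA 2. Of these Myh11, a smooth muscle myosin, went the other way, from 2.36 to 3.03 CPM under ppluc to 16.3 to 19.1 under shRNA 2 (2.52 ± 0.15, limma adjusted p = 1.8e-11). Under shRNA 2, where the replication genes were highest, the sums of all of these lists except that of macrophages were at their lowest, and their part in the results was not tested.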

How the data were processed

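RNA of 12 libraries in 4 groups of 3 was sequenced with strand-specific polyA libraries and 150-bp paired reads, per the labels' protocols. The build Rnor_6.0 and the tool DESeq2 are named in the submitters' processing notes without a role; neither the labels nor the file name an aligner or a counting method. The deposited table holds the authors' group means of CPM (reads scaled to a common library total) and of TPM (scaled by transcript length as well), not single libraries. Single libraries were recovered from the CPM means by arithmetic: each mean is the sum of 3 whole read counts over 3 library totals, and the triple of counts that gives the deposited value at 15 significant digits was searched for. A single triple was found for 99.5% to 99.8% of features above 0 in a group, and for all 40 genes described; of 2000 control values per group, 0 to 2 had a triple. Where several triples fitted, those with a spread above a limit were dropped if others remained. That limit was taken from features with a single triple and was 0.084 to 0.204 of the mean by group. Where several still remained, the widest of them was used in the tests and only the authors' mean is printed.

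The main test was limma 3.58.1 (R 4.3.3, empirical Bayes with a trend) on log2(CPM + 0.5), over 12493 features with at least 0.5 CPM in at least 3 libraries, in one fit of all 12 libraries, with Benjamini-Hochberg adjustment over all of them. The alternatives were pseudocounts of 0.1 and 1, no filter, a filter of 2 CPM, trimmed-mean and median-of-ratios scaling, voom weights, a fit of only 2 groups and each library left out. Recovered libraries carry no replicate number, so no block was fitted. Tables were handled in Python 3.11.15 with numpy 2.4.6, pandas 2.3.3 and scipy 1.17.1.

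Members and gene lists were chosen with earlier results of these data known. Given in full are the highest in TPM of each role group, the 5 largest called changes of each of the 6 comparisons, members that moved against most called members of their role group, and a fixed set of regulators; the lists of related cell-cycle and replication genes give the 3 members with the smallest p for each shRNA against ppluc. Of those lists, Ccna2, E2f7 and Anln were named after their values were seen. E2f1, Dna2, Cdkn2d, Ccnb2 and Pecam1 are not analysed here.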

Additional observations from a re-analysis of the deposited data

Results flagged for a closer look

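Of the 36 replication genes tested, 3 passed the limma test as a fall with Sbk2 shRNA 1 and as a rise with Sbk2 shRNA 2, and the difference between the shRNAs passed it too. Of all features tested, 18.7% fell with shRNA 1 and 65.0% rose with shRNA 2. The share that did both was not counted, so the 3 genes are given as a description. Rpa2, a subunit of the single-strand binding complex, was 2.64 higher with shRNA 2 than with shRNA 1 on the log2 scale. Rfc3, of the clamp loader, was 1.38 higher, and Rrm1, the large subunit of ribonucleotide reductase, 0.69 higher. Relative to ppluc the rise of Rrm1 with shRNA 2 did not pass after trimmed-mean scaling, at 0.04. The libraries of Cdc45 and Rpa1 also lay below all ppluc libraries with shRNA 1 and above them with shRNA 2, but their shRNA 1 change passed the test only after scaling.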

How the results depend on the processing

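Among the summary results and the 41 gene-comparison values recomputed under each alternative, none reversed. Outside that set, trimmed-mean scaling turned the shRNA 2 change against ppluc to -0.21 for Wee1, a called fall, and to -0.14 for Cdt1 and -0.18 for Mki67, neither past the test, with others given beside the genes in the report. Trimmed-mean and median-of-ratios scaling moved most: the members that fell went from 5 to 2 for ppluc against untransduced, from 3 to 8 for shRNA 1 against ppluc, from 1 to 3 for shRNA 2 against ppluc, from 4 to 8 for shRNA 1 against untransduced and from 1 to 4 for shRNA 2 against untransduced, under either scaling. Under trimmed-mean and median-of-ratios scaling respectively, the median change became 0.076 and 0.076 (shRNA 1 against ppluc), 0.66 and 0.68 (shRNA 2 against ppluc), 0.68 and 0.70 (shRNA 2 against shRNA 1), 0.24 and 0.24 (shRNA 1 against untransduced), and 0.87 and 0.90 (shRNA 2 against untransduced). For shRNA 2 against ppluc the median was 1.22 with a pseudocount of 0.1 and 1.23 with voom weights; against untransduced it was 1.39 with a pseudocount of 0.1, 1.29 with 1, 1.23 without a filter and 1.40 with voom weights. Without a filter the median was 0.80 for shRNA 2 against shRNA 1 and 0.38 for shRNA 1 against untransduced. The cause was not tested. In TPM the summed level with shRNA 1 was 1.39 times that of untransduced cells, and within 100 bases of the start 36.1% of members and 26.7% of all promoters held a GC box.

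With each library left out in turn, members that fell numbered 2 to 5 for ppluc against untransduced (2 without untransduced library A or ppluc library B, 3 without untransduced library B), 2 to 5 for shRNA 1 against ppluc (5 without ppluc library B) and 2 to 3 for shRNA 1 against untransduced (2 without shRNA 1 library C). The median was 1.13 to 1.25 for shRNA 2 against ppluc and 1.31 to 1.39 for shRNA 2 against untransduced. Of the 41 gene-comparison values, Mcm7 and Rfc4 between the control groups, Mcm6 between the shRNAs and Rfc3 between shRNA 1 and untransduced cells lost their call in 17 refits over all alternatives. Besides left-out libraries, these were Mcm7 under both scalings, Rfc4 without a filter and Rfc3 in the fit of only 2 groups. No paired analysis was possible because the deposited columns are group means and the recovered libraries carry no replicate number. Orc1, Cdc6, Mcm10 and Uhrf1 had too few reads to be tested under the filter.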
